A study of Mus musculus with 8 samples.

Results

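The genes described here encode receptors for hormones of pregnancy: Esr1 and Esr2, the estrogen receptors alpha and beta, Prlr, the prolactin receptor, and Ghr, the growth hormone receptor. They were read in sorted CD4+CD25+ lymphocytes, among which regulatory T cells (Treg) are abundant. A gene was taken where the platform annotation gave a probe set that symbol alone, which held for 3 of the 4 receptors and 3 of the 6986 genes tested. Esr1 (probe set 17231461, chromosome 10), Esr2 (17281979, chromosome 12) and Ghr (17315635, chromosome 15) had 1 probe set each. Prlr, also on chromosome 15, was not analysed here.

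Affymetrix Mouse Gene 2.0 ST arrays were compared, 4 with the label IL10-/- and 4 with the label IL10+/+. The IL10-/- mice lacked a functional gene for the cytokine interleukin 10, had been backcrossed to the C57BL/6 colony and drank oxytetracycline at 2 mg/ml against colitis. The IL10+/+ mice were C57BL/6, and no antibiotic is stated for them, so genotype and antibiotic cannot be told apart. All animals were pregnant females at day 9.5 post coitus, the cells were sorted from the para-aortic lymph nodes that drain the uterus, and each array received RNA pooled from 2 to 4 mice. Neither the ages of the mice nor, for these samples, any lipopolysaccharide injection is given in the labels.

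Estrogen receptors are nuclear receptors: bound by estradiol, they sit on DNA with coactivators or corepressors and change the transcription of target genes. The prolactin and growth hormone receptors are class I cytokine receptors of the cell surface, which signal through the kinase JAK2 to the transcription factor STAT5 and are held back by SOCS proteins. Prolactin, growth hormone and the placental lactogens of the prolactin family are their ligands, and in mice the placenta makes many members of that family. In Treg, STAT5 is best known as the factor that carries the signal of interleukin 2.

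Il10 itself, the gene disrupted in the mutants, read 9.35, 8.65, 9.42 and 9.25 on the log2 scale in IL10-/- arrays, against 8.27, 8.51, 8.14 and 7.50 in IL10+/+ arrays. It was thus higher where the label says it is disrupted, but the labels do not say which part of the gene was mutated, and a probe set outside that part checks no label. IL10-/- and IL10+/+ arrays below are therefore arrays with those labels. The Treg markers Ctla4 and Ikzf2 averaged 11.27 and 11.44 over the 8 arrays, and Foxp3, Il2ra and Cd4 were not analysed here. The B cell genes Ighm, by the brightest of its 7 probe sets, and Cd79b averaged 12.05 and 8.58. The sorted fraction thus also held transcripts of some genes that mark other cells. These were the brightest of 6 measured B cell genes, and Blk averaged 7.90, Fcrla 6.45, Vpreb3 6.38 and Cr2 6.31. An array of each genotype, IL10-/- replicate 2 and IL10+/+ replicate 4, differed from the rest in a narrower spread of signals, with interquartile ranges of 2.15 and 2.17 log2 units over all genes, against 2.32 to 2.58 elsewhere. In such bulk samples, fewer cells of a type and less RNA per cell cannot be told apart.

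The 3 receptors gave signals at or inside the array background, and none passed the test between the genotypes. The background was taken from 275 olfactory and vomeronasal receptor genes, whose expression belongs to sensory neurons. Over the 8 arrays their median was 4.79 and their 95th percentile 7.07, values that are log2 signals. No detection call came with the table, and probe sets differ in how strongly they read a given amount of RNA. A position within the background is therefore a description of the signal, and the levels of different receptors were not ranked.

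Esr1 read 6.70, 6.83, 6.97 and 6.80 in IL10-/- arrays, against 6.70, 6.73, 6.92 and 7.40 in IL10+/+ arrays. Of these, IL10+/+ replicate 4 was the highest and the ranges of the groups overlapped. Its mean over all arrays, 6.88, lay above 256 of the 275 background genes (93.1%) and above 45.5% of all genes tested. Set against each array's own 95th percentile of background, Esr1 was above it in 1 of 4 IL10-/- arrays (replicate 3) and in 1 of 4 IL10+/+ arrays (replicate 4). The signal of the estrogen receptor alpha gene thus stood in the upper part of the background and passed its 95th percentile in 2 of 8 arrays.

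For Esr2 the values were 6.88, 7.39, 7.22 and 7.06 in IL10-/- arrays, against 6.90, 6.95, 7.23 and 7.33 in IL10+/+ arrays. IL10-/- replicate 2 and IL10+/+ replicate 4, the arrays with the narrower spread, were the highest of their groups, and the groups spanned nearly the same range. In those arrays the 95th percentile of the background was 7.26 and 7.15, against 6.94 to 7.15 in the remaining arrays. Esr2 averaged 7.12, above 263 of the 275 background genes (95.6%) and above 51.9% of all genes. It exceeded its array's 95th percentile in 3 of 4 IL10-/- arrays and in 2 of 4 IL10+/+ arrays, and the mean over 8 arrays passed that bound by 0.05.

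Ghr read 5.38, 5.69, 5.65 and 5.56 in IL10-/- arrays, against 5.51, 5.71, 5.55 and 5.54 in IL10+/+ arrays. The values of all 8 arrays lay within 0.33 of each other, and the groups overlapped. At a mean of 5.57, Ghr was above 196 of the 275 background genes (71.3%) and above 15.1% of all genes. It was below the 95th percentile of background in 8 of 8 arrays, with distances from -1.66 to -1.29, and above the background's median in all 8. The signal of the growth hormone receptor gene thus stayed below that bound throughout.

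**Figure D1:**
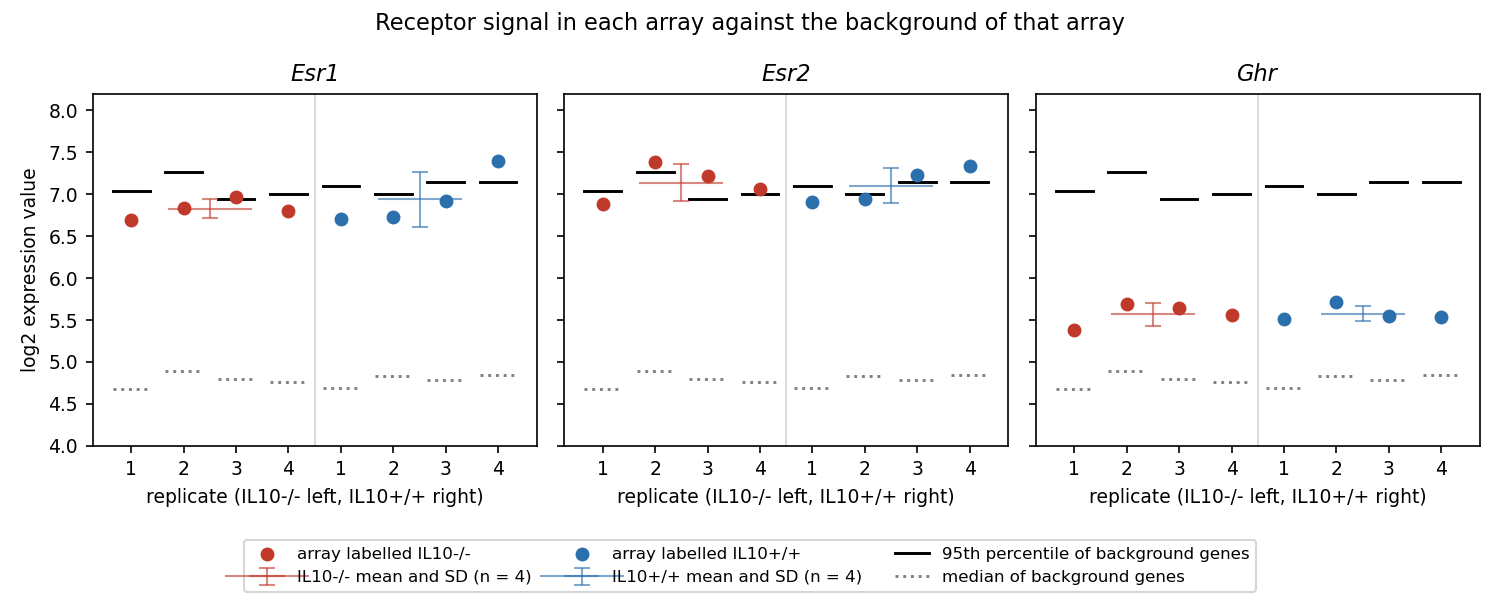
Log2 expression value (vertical axis) of Esr1, Esr2 and Ghr in each array (horizontal axis, IL10-/- red at left, IL10+/+ blue at right), with the group mean and SD (n = 4 each); short black bars give the 95th percentile and dotted grey bars the median of 275 olfactory and vomeronasal receptor genes in the same array. Esr1 and Esr2 run along the black bars, Ghr lies well below them, and in each panel the groups overlap.

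**Figure D2:**
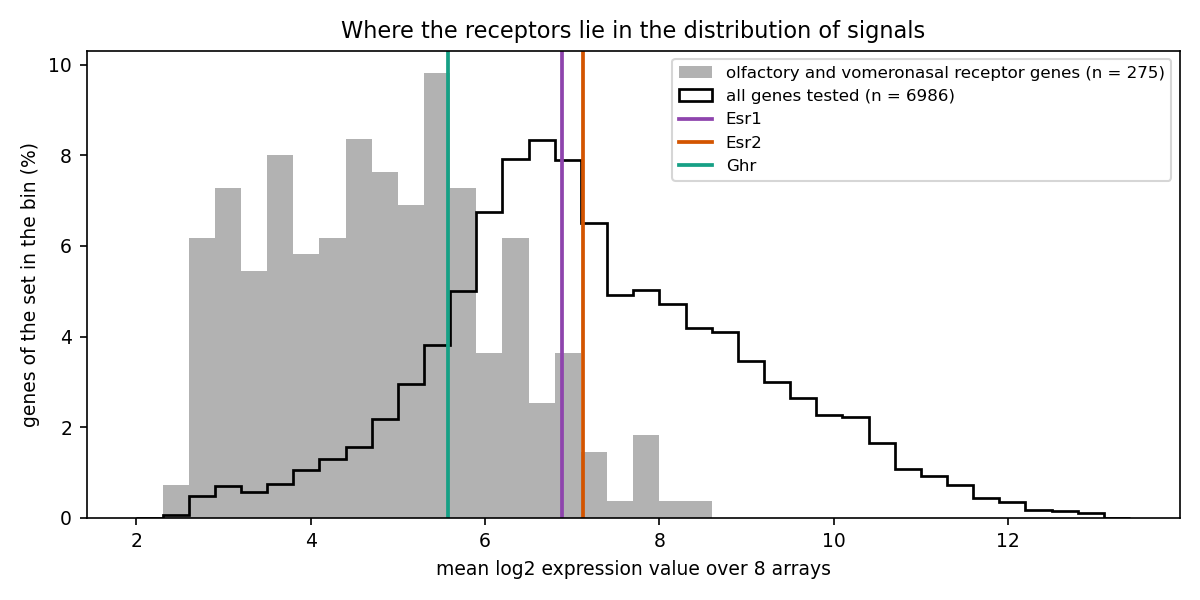
Distribution of the mean log2 value over 8 arrays (horizontal axis, in bins; vertical axis, percent of the genes of the set) for 275 olfactory and vomeronasal receptor genes (grey) and all 6986 genes tested (black outline), with vertical lines at Ghr (5.57), Esr1 (6.88) and Esr2 (7.12). Ghr falls among the commonest background values, and the estrogen receptors fall at the upper end of the background and near the middle of all genes.

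The choice of background set the bound. With 63 keratin, crystallin and taste receptor genes in its place, the 95th percentile was 8.04, and Esr1, Esr2 and Ghr were above 46, 51 and 16 of those genes. All 3 receptors then lay below the bound, by 1.16, 0.92 and 2.47. Esr2 was the one receptor whose side of the bound changed with the set. Below, "above background" means above 7.07, the bound of the first set, which 3445 of all 6986 genes passed (49.3%), and 2207 passed the second bound (31.6%).

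Between the genotypes, the receptors differed by less than the spread between pools. Esr1 averaged 6.83 ± 0.11 in IL10-/- arrays and 6.94 ± 0.32 in IL10+/+ arrays (SD, n = 4 per group). The log2 difference was -0.11 (SE 0.15), with an exact two-sided permutation p of 0.686 over the 70 assignments of arrays. Its 95% interval from limma, a linear model with a spread estimate shared across genes, ran from -0.45 to 0.23, or from 0.73-fold to 1.17-fold. Without IL10+/+ replicate 4 the difference was 0.04, so its sign rested on that array.

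Esr2 averaged 7.14 ± 0.22 in IL10-/- arrays and 7.10 ± 0.21 in IL10+/+ arrays (SD, n = 4 per group). This gave a log2 difference of 0.03 (SE 0.14; 95% interval -0.28 to 0.35, or 0.82-fold to 1.27-fold; exact permutation p = 0.829). Its sign turned in 4 alternatives, among them without IL10-/- replicate 2 (-0.049), without IL10+/+ replicate 1 (-0.033) and without IL10+/+ replicate 2 (-0.018). Ghr averaged 5.57 ± 0.14 in IL10-/- arrays and 5.58 ± 0.09 in IL10+/+ arrays (SD, n = 4 per group), a difference of -0.01 in log2 units (SE 0.10; 95% interval -0.24 to 0.22, or 0.85-fold to 1.17-fold; exact permutation p = 0.886). That sign turned without IL10-/- replicate 1 (0.055) and without IL10+/+ replicate 2 (0.037). All 3 intervals lay well within a 2-fold change of signal in either direction. For transcripts near background they bound the signal, of which an unknown share came from the transcript, and not the transcript itself.

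By limma with Benjamini-Hochberg adjustment over all 6986 genes, 0 of the 3 receptors passed the threshold of 0.05, and each had an adjusted p of 0.999. At an unadjusted p under 0.05 the count was again 0, with 0.482 for Esr1, 0.813 for Esr2 and 0.942 for Ghr. Over all genes, 2 passed (0.0286%), and the chromosome 1 genes Ctse and Efcab2 were those. The groups did not overlap for 0 of the 3 receptors, against 2.92% of all genes, and 4.78% of all genes had an unadjusted p under 0.05.

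**Figure D3:**
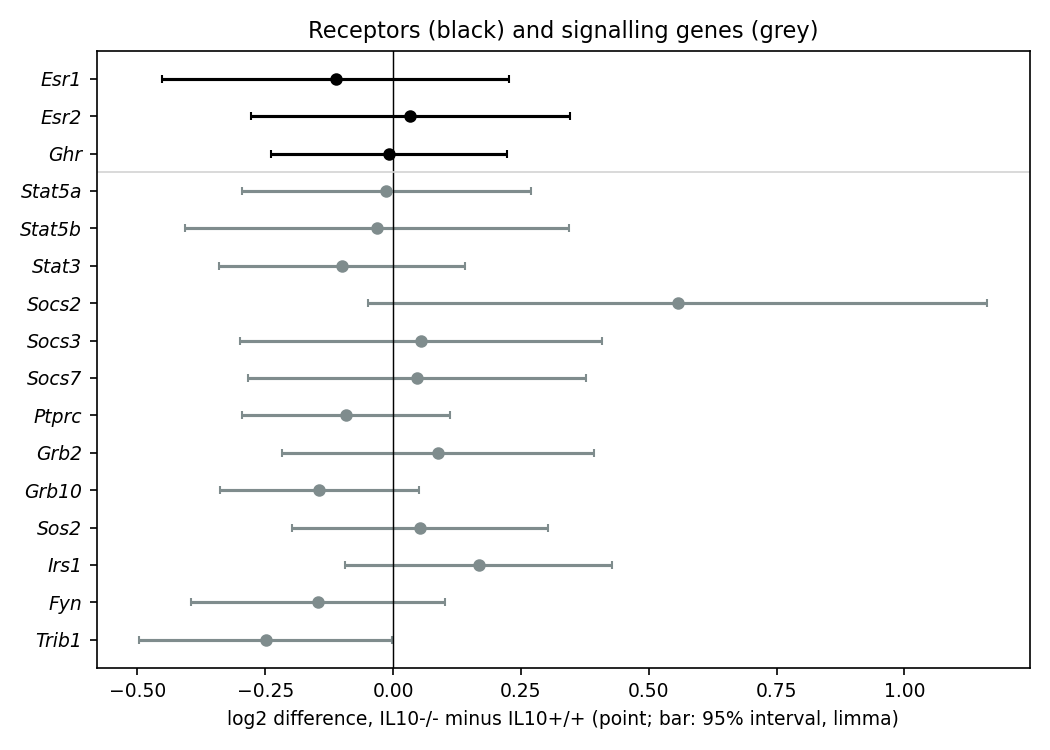
Log2 difference, IL10-/- minus IL10+/+ (horizontal axis), for Esr1, Esr2 and Ghr (black) and 13 measured genes of JAK2-STAT5 signalling (grey); points are estimates and bars are 95% intervals from limma with 4 arrays a group. The receptor estimates lie between -0.11 and 0.03 with intervals across 0, and Socs2, at 0.56, has the widest interval of the genes shown.

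The genes around the receptors were read from 7 lists of 265 names, of which 107 genes were measured. Of the 158 names not measured, 141 lie on chromosomes other than 1 and 10 to 15 in the gene table, 9 lie on those and 8 were not found there by symbol. Of these 107 genes, 52 were above background (48.6%) and 34 above the second bound (31.8%), shares close to those of all genes. In the test between genotypes, 0 of the 107 passed the threshold over all genes, with adjusted p-values by limma from 0.523 to 0.999. The groups did not overlap for 6 genes (5.61%), 3 higher and 3 lower, against 2.92% of all genes, 1.83% higher and 1.09% lower. Of the 6, Bcl2, Paqr8 and Ramp1 lie on chromosome 1, which also carries Il10, Ctse and Efcab2. Prl2c1, Grb10 and Krt18 lie on other chromosomes. Other list genes on chromosome 1 had groups that overlapped: Ptprc, Irs1, Fasl, Tnfrsf11a, Ncoa2, Sgk3, Ihh, Igfbp5, Esrrg, Avpr1b and Hsd17b7. The share of chromosome 1 among all tested genes was not counted, and a link with chromosome 1 was not tested. The median log2 difference over all genes was 0.002, against which the list medians below can be set. Without IL10-/- replicate 2 and IL10+/+ replicate 4, the narrower arrays, the differences of 62 of the 107 genes turned sign or moved by over 1.5 times, so values without both stand beside several of the genes and lists below.

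Ligands stood inside the background. Of 26 measured genes for ligands, steroid-converting enzymes and binding proteins, 0 lay above the 95th percentile of background, and their median log2 difference was 0.01. The 21 measured genes of the prolactin family averaged between 3.21 and 5.69. Its members are close paralogs, so separate signals are uncertain. Prl, the pituitary prolactin gene, averaged 5.52 ± 0.27 in IL10-/- arrays and 5.57 ± 0.22 in IL10+/+ arrays (SD, n = 4 per group), -0.06 apart, or -0.09 without both narrower arrays. Gh, the growth hormone gene, whose difference turned sign without both narrower arrays (-0.03 with all, 0.02 without), averaged 6.15 ± 0.07 in IL10-/- arrays and 6.18 ± 0.17 in IL10+/+ arrays (SD, n = 4 per group). Prl2c1 was the one ligand gene whose groups did not overlap, with 5.55, 5.53, 5.33 and 5.53 in IL10-/- arrays, against 5.86, 5.70, 5.75 and 5.56 in IL10+/+ arrays. Its log2 difference of -0.23 (SE 0.10) did not pass (limma, adjusted p = 0.999). Hsd17b7, an enzyme of estradiol and cholesterol synthesis, differed by 0.41 (SE 0.19), which did not pass (limma, adjusted p = 0.999). Its groups overlapped over all arrays. Hsd17b7 had its lowest value, 6.61, in IL10-/- replicate 2. Without both narrower arrays it differed by 0.62. Its mean of 7.05 lay just under the bound. In IL10-/- replicates 1, 3 and 4 it read 7.355, 7.595 and 7.449, above those arrays' own 95th percentiles of 7.035, 6.941 and 7.00. In IL10+/+ arrays it read 6.826, 6.975, 6.735 and 6.846, below each array's own percentile. In every array of both genotypes it lay below the second bound of 8.04.

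Downstream of the prolactin and growth hormone receptors, most of the measured signalling genes were above background. This held for 11 of 13 measured genes, 10 of them above the second bound, and 0 passed the test. The median log2 difference of the list was -0.01, or -0.07 without both narrower arrays. Jak2, the gene of the kinase named above, and the inhibitor genes Cish and Socs1 were not analysed here. Stat5a read 8.71, 8.71, 8.64 and 8.77 in IL10-/- arrays, against 8.84, 8.76, 8.92 and 8.35 in IL10+/+ arrays. Stat5b read 9.90, 9.32, 9.99 and 9.85 in IL10-/- arrays, against 9.62, 9.98, 10.05 and 9.53 in IL10+/+ arrays. The groups overlapped for both STAT5 genes, which differed by -0.01 (SE 0.13) and -0.03 (SE 0.17), and by -0.135 and 0.03 without both narrower arrays.

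Among the inhibitors, Socs2, which is induced by growth hormone and STAT5 and binds the growth hormone receptor, had the largest difference of the list. It read 8.37, 8.35, 9.03 and 8.44 in IL10-/- arrays, against 8.42, 8.59, 7.64 and 7.31 in IL10+/+ arrays. Replicates 3 and 4 of IL10+/+ were low and replicates 1 and 2 lay among the IL10-/- values. The log2 difference of 0.56 (SE 0.27) did not pass (limma, adjusted p = 0.999), was 0.39 without both narrower arrays, and was -0.05 by the second, dimmer probe set of Socs2. Socs3 and Socs7 differed by 0.06 and 0.05, and by 0.11 and -0.07 without both. Grb10, an adaptor that inhibits growth factor receptors, had groups that did not overlap at a dim 5.81 ± 0.035 in IL10-/- arrays and 5.95 ± 0.06 in IL10+/+ arrays (SD, n = 4 per group). Trib1, a pseudokinase, differed by -0.25 (SE 0.11), or -0.15 without both, and the kinase Fyn by -0.15 (SE 0.11).

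Target genes of STAT5 and growth hormone had a median log2 difference of -0.11 over 11 measured genes, 4 positive and 7 negative, and -0.07 without both narrower arrays. Of these genes, 6 lay above background and 5 above the second bound. Bcl2, the survival gene, read 10.96, 11.07, 11.02 and 10.90 in IL10-/- arrays, against 11.33, 11.09, 11.13 and 11.37 in IL10+/+ arrays. The groups did not overlap, and the log2 difference of -0.24 (SE 0.10) did not pass (limma, adjusted p = 0.999) and was -0.07 by its dimmer probe set. Igf1, the growth factor gene that growth hormone induces in liver, averaged 6.71 ± 0.11 in IL10-/- arrays and 6.92 ± 0.17 in IL10+/+ arrays (SD, n = 4 per group), inside the background. The cytokine genes Osm and Tnfsf11 differed by -0.21 and 0.18.

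The coregulators and chaperones that estrogen receptors use were all above background, 13 of 13 measured genes, and 11 passed the second bound. Of these, 3 had a positive and 10 a negative difference, with a median of -0.04, or -0.06 without both narrower arrays, and the groups overlapped for each. Ncoa1, a coactivator of nuclear receptors, averaged 8.82 ± 0.10 in IL10-/- arrays and 8.61 ± 0.13 in IL10+/+ arrays (SD, n = 4 per group), or 0.21 apart (SE 0.11). Ddx5, an RNA helicase and coactivator, differed by -0.36 (SE 0.28), Ncoa7 by -0.20 and Med1, the Mediator subunit that binds nuclear receptors, by -0.20. Ddx5 was lowest in IL10-/- replicate 2, at 10.47, and without both narrower arrays Ddx5 differed by -0.21, Ncoa7 by -0.10 and Med1 by -0.19. These proteins serve many transcription factors besides estrogen receptors.

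Genes known to respond to estrogen in breast or uterus gave 13 of 23 members above background, but 6 above the second bound, and a median log2 difference of -0.04, with 8 positive and 15 negative, or a median of -0.008 without both narrower arrays. Greb1, a classical estrogen-induced gene, averaged 6.45 ± 0.03 in IL10-/- arrays and 6.49 ± 0.09 in IL10+/+ arrays (SD, n = 4 per group), inside the background, a difference of -0.036 that was -0.008 without both narrower arrays. Krt18, an epithelial keratin, had groups that did not overlap, at 6.70 ± 0.14 in IL10-/- arrays and 6.40 ± 0.12 in IL10+/+ arrays (SD, n = 4 per group), also inside the background. Its log2 difference of 0.30 (SE 0.11) did not pass (limma, adjusted p = 0.866). Igfbp4, which binds insulin-like growth factors, differed by -0.25 (SE 0.16), and the replication licensing gene Cdc6 by 0.22 (SE 0.24). Igfbp4 was lowest in IL10-/- replicate 2, at 7.95, and without both narrower arrays Igfbp4 differed by -0.11 and Cdc6 by 0.12.

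Of 15 measured genes listed as other receptors for hormones of pregnancy, 7 lay above background but only 1, Ramp1, above the second bound. Ramp1, Ramp2 and Ramp3, all among the 7, encode partner proteins of receptors. The median log2 difference of the list was -0.01, or -0.003 without both narrower arrays. Paqr8, a membrane receptor for progesterone, read 7.34, 7.55, 7.45 and 7.48 in IL10-/- arrays, against 7.20, 7.12, 7.32 and 7.26 in IL10+/+ arrays. The groups did not overlap, and the difference of 0.23 (SE 0.10) did not pass (limma, adjusted p = 0.953). Ramp1, the partner protein of the receptor for calcitonin gene-related peptide, read 8.57, 8.34, 8.36 and 8.72 in IL10-/- arrays, against 7.86, 8.05, 8.17 and 7.90 in IL10+/+ arrays. Its difference of 0.50 (SE 0.12) was likewise without overlap and did not pass (limma, adjusted p = 0.523). The estrogen-related receptor genes Esrrb and Esrrg, whose proteins do not bind estradiol, differed by -0.07 and -0.02, and by -0.055 and -0.003 without both narrower arrays.

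Among class I cytokine receptors, the relatives of Prlr and Ghr, 5 of 10 measured genes lay above background and 3 above the second bound. The receptor genes Il7r, Il6st and Il2rb averaged 11.65, 11.46 and 11.10 over the 8 arrays and differed by -0.12, -0.16 and -0.17. Il2rb was lowest in IL10-/- replicate 2, at 10.22, and differed by -0.03 without both narrower arrays. Lifr and Osmr, the receptors for leukaemia inhibitory factor and oncostatin M, averaged 5.64 and 5.73, inside the background like Ghr. The groups overlapped for each of the 10 genes.

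**Figure D4:**
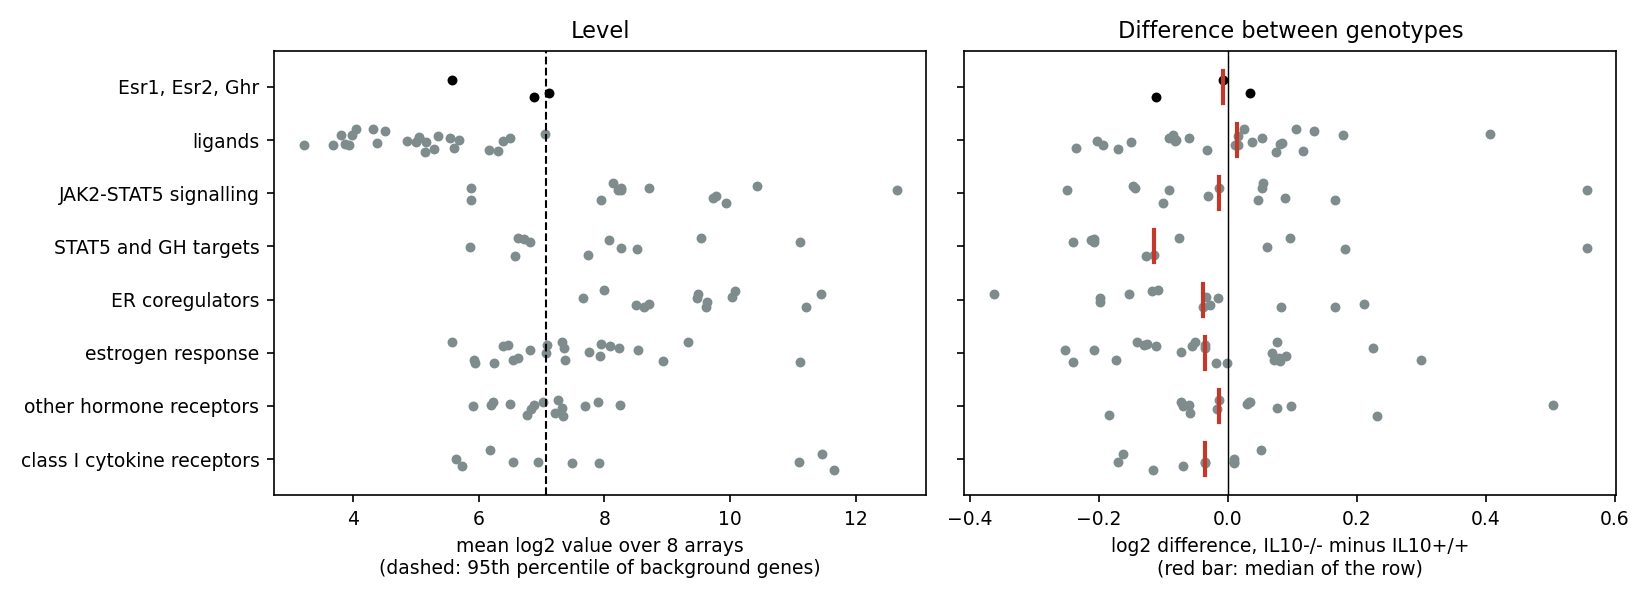
Mean log2 value over 8 arrays (left, dashed line at 7.07, the 95th percentile of background genes) and log2 difference IL10-/- minus IL10+/+ (right, red bars at the medians) for Esr1, Esr2 and Ghr (black) and the measured genes of 7 lists (grey; GH, growth hormone; ER, estrogen receptor), 1 point a gene, with vertical scatter for legibility only. All ligands lie left of the dashed line and all estrogen receptor coregulators right of it, and the list medians lie between -0.11 and 0.01.

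On chromosome 15, the genes beside Ghr and Prlr gave both bright and background signals, and none passed the test. Selenop, the selenoprotein P gene on one side of Ghr, averaged 10.28 ± 0.12 in IL10-/- arrays and 10.17 ± 0.38 in IL10+/+ arrays (SD, n = 4 per group). Ccdc152, which the gene table places between them, averaged 5.39 ± 0.26 in IL10-/- arrays and 5.10 ± 0.55 in IL10+/+ arrays (SD, n = 4 per group). On the other side, Fbxo4 averaged 8.51 over the 8 arrays, and AW549877 averaged 9.91 ± 0.19 in IL10-/- arrays and 10.10 ± 0.17 in IL10+/+ arrays (SD, n = 4 per group). Of the 7 nearest tested genes of Ghr, 5 were above background, with log2 differences from -0.19 to 0.29. Prlr has Spef2 and Il7r before it and Agxt2 and Dnajc21 after it in the table. Dnajc21, a co-chaperone gene of ribosome assembly, had the largest difference of the 10 tested genes around Prlr, at 9.76 ± 0.32 in IL10-/- arrays and 9.23 ± 0.36 in IL10+/+ arrays (SD, n = 4 per group), or 0.52 (SE 0.20; limma, adjusted p = 0.873). Of those 10 genes, 4 were above background and 0 had groups without overlap.

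The pattern of each receptor across the 8 arrays was most like that of other dim genes. For Esr1 the highest Pearson r over 8 arrays were with Acot3 (0.949), Fem1al (0.948) and Taar4 (0.945). Esr2 was closest to Mir327 (0.972), Dlx4 (0.964) and the olfactory receptor gene Olfr745 (0.960), and Ghr to the olfactory receptor gene Olfr23 (0.936), Pcsk1 (0.926) and Grik2 (0.897). All of these averaged below 7.07, and they were picked as the top 3 of 6986 genes for each receptor. The arrays share their processing, and 8 points give such values for many genes: 164 genes reached 0.8 with Esr1, 258 with Esr2 and 23 with Ghr. Between Esr1 and Esr2 the r was 0.697.

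Levels of genes that mark other cells of a lymph node or its surroundings were set beside the receptors, and no marker passed the test. Of 11 measured genes listed for stroma, endothelium and fat, 4 were above background: Pecam1 at 9.89, Col6a2 at 7.52, Madcam1 at 7.28 and Col6a1 at 7.21. Only 1 of them, Pecam1, passed the second bound, and whether its signal came from endothelium was not tested. The mean over the list ran from 6.67 to 6.88 in IL10-/- arrays and from 6.75 to 6.91 in IL10+/+ arrays. The stromal genes Dcn and Lum averaged 5.10 and 4.63, inside the background. For B cells, 3 of 6 measured genes were above background and 2 above the second bound. Over the B cell list the mean ran from 7.94 to 8.09 in IL10-/- and from 7.74 to 7.97 in IL10+/+. Differences were positive for 6 of 6 B cell genes, against 3550 of all 6986 genes, and the groups overlapped for each. The median was 0.15 over all arrays and 0.16 without both narrower ones, where Blk (-0.018) and Cr2 (-0.195) turned negative. Ighm averaged higher in IL10-/- by 7 of its 7 probe sets, by 0.16 to 3.33 log2 units. These probe sets read 1 gene and are not separate evidence. The 3.33 came from 1 probe set, at 8.06 in IL10-/- and 4.73 in IL10+/+, and the others differed by at most 0.93. No probe set of Ighm passed the threshold in the fit over all probe sets. Myeloid genes gave 4 of 7 above background and 1 above the second bound. Means over the myeloid list ran from 6.56 to 7.18 in IL10-/- and from 6.90 to 7.05 in IL10+/+. Of 6 genes of liver, mammary gland, ovary and uterus, 1 was above background, Inha at 7.18, and 0 passed the second bound. The part of such cells in the receptor signals was not tested.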

How the data were processed

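Per the design text in the labels, the authors made the deposited log2 expression values in Partek Genomics Suite: RMA corrected the background, Partek corrected for GC content, and the probes of a probe set were averaged. Affymetrix Expression Console is also named in the submitters' processing notes. Neither versions nor the genome build are stated. RNA was amplified before labelling.

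Of 16378 probe sets, 7358 carried 1 gene symbol in the platform annotation, 456 several and 8564 none. Symbols were updated through Entrez identifiers to the RefSeq table of GRCm38.p6 (7310 matched), which also gave gene order. Of the genes placed, 99.6% lay on chromosomes 1 and 10 to 15. For the 284 genes with several probe sets, the one with the highest mean was used, which left 6986 genes without a filter on signal. Genotypes were compared with limma 3.58.1 in R 4.3.3 (lmFit, eBayes), with Benjamini-Hochberg adjustment over all genes and a threshold of 0.05. An exact two-sided permutation test over 70 assignments was added for the receptors, with 0.0286 its smallest possible p. The number of arrays limits the precision. The fit was tested on simulated data of 6986 genes, with noise drawn separately for each gene. It recovered 91 of 100 genes changed by 1 log2 unit and 98 of 100 changed by 2, all in one data set. The simulation held no variation shared between genes and far more changed genes than the 2 called here. Its shares therefore do not measure the power of the comparison between genotypes.

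Background genes were those named Olfr, Vmn1r or Vmn2r. The second background set was to include protamine genes. None was measured, and arginine methyltransferase genes with the same first letters were left out. The receptors and gene lists were chosen with earlier results of these data known. Named were the receptors, the measured STAT5 and SOCS genes, and up to 4 genes a list (called, then without overlap, then largest difference above background). So were the 2 nearest tested genes on either side of Ghr and Prlr, and the 3 genes most like each receptor. The rule also took all measured ligands, but only Prl, Gh and Prl2c1 were named and the rest were given as a set. Markers of other cells were named where their level stands beside a receptor, and Igf1, Greb1, Hsd17b7, Krt18, Esrrb, Esrrg, Lifr and Osmr were chosen after their values were seen where that rule did not name them. Protein sequences were not used here, so the receptors' proteins were not compared. Alternatives were other scalings between arrays, probe set rules, a signal filter, variance models, array weights, a replicate block and leaving out arrays.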

Additional observations from a re-analysis of the deposited data

Results flagged for a closer look

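Among 49 genes named above or by the same rule, 98 groups of 4 arrays were checked for an array far from the other 3 by Dixon's criterion. In 6 groups there was one, and chance gives about 5 in 100. None was a group of Esr1, Esr2 or Ghr. Socs2 read 9.03 in IL10-/- replicate 3, against 8.35 to 8.44 in the other IL10-/- arrays. Il2rb, the interleukin 2 receptor beta chain, read 10.22 in IL10-/- replicate 2, an array with a narrower spread of signals, against 11.24 to 11.34 in the others of its group. Prl2c1 read 5.33 in IL10-/- replicate 3, against 5.53 to 5.55. Ccdc152 read 5.78 in IL10-/- replicate 1, against 5.20 to 5.30. Grb10 read 6.04 in IL10+/+ replicate 3, against 5.92 to 5.94. Olfr23 read 5.33 in IL10+/+ replicate 2, against 5.03 to 5.06.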

How the results depend on the processing

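No receptor or list gene that was tested passed the threshold under any of the 18 alternatives run. The signal filter kept Esr2 and 52 of the 107 list genes and gave no value for Esr1, Ghr and the other list genes, and Prlr had no value throughout. Signs of the receptor differences, all small, did turn. Without single arrays the log2 difference of Esr1 ran from -0.191 to 0.043, that of Esr2 from -0.049 to 0.120 and that of Ghr from -0.048 to 0.055. It turned for Esr1 without IL10+/+ replicate 4 (0.043) and without IL10-/- replicate 2 and IL10+/+ replicate 4 together, the narrower arrays (0.040). For Esr2 it turned with array weights (-0.042), without IL10-/- replicate 2 (-0.049), without IL10+/+ replicate 1 (-0.033) and without IL10+/+ replicate 2 (-0.018). For Ghr it turned without IL10-/- replicate 1 (0.055) and without IL10+/+ replicate 2 (0.037). The cause was not tested.

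The level over the background's bound was -0.19 for Esr1, 0.05 for Esr2 and -1.50 for Ghr. Against the background's 50th percentile it was 2.09, 2.33 and 0.79, and against the keratin, crystallin and taste receptor genes -1.16, -0.92 and -2.47, as the construction of these bounds implies. Without both narrower arrays, an alternative added after seeing the data for lists and their genes, list medians were -0.066 for STAT5 and growth hormone targets (-0.114 with all arrays), -0.066 for JAK2-STAT5 signalling (-0.013), -0.060 for coregulators (-0.038), -0.008 for estrogen response genes (-0.036), -0.003 for other hormone receptors (-0.014), -0.023 for cytokine receptors (-0.035) and 0.021 for ligands (0.014). The number of genes called over the table, 2 in the fit reported, was 1 with a common median, over all probe sets, with array weights, without both narrower arrays and with the replicate block, and ran from 1 to 4 without single arrays. It was 3 with limma's trend and with its trend and robust settings. Deviations of same-numbered arrays from their group means correlated at 0.053, -0.321, 0.027 and -0.186. Those of the narrower arrays, which differ in number, correlated at 0.456, so the values cannot show whether replicate numbers pair the arrays. With the replicate block the differences were -0.11 for Esr1, 0.03 for Esr2 and -0.01 for Ghr. Signal near background limits all 3 receptors.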
